A study of Homo sapiens with 12 samples.

Results

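The genes described here are 38 human genes of the centromere and kinetochore, chosen by symbol from a list of centromere proteins, kinetochore complexes, spindle checkpoint proteins and chromosomal passengers. All 38 were present among the 25343 genes of the count table, and all 38 were among the 14199 genes tested after a filter on low counts. The choice used no measured value of a comparison, but it was made with earlier results of these data known. Messenger RNA was sequenced from 2 cancer cell lines that express Cas9, the colorectal line SW48 and the ovarian line OVK18. Each line was transduced with a guide RNA that cuts an intergenic site on chromosome 2 (sgCh2-2, the control), with sgWRN2 or with sgWRN3, which both target WRN, and RNA was taken 72 h later. WRN encodes a RecQ-family DNA helicase. All 6 groups thus carry Cas9 and a guide, and each group holds 2 libraries, A and B. The labels do not say whether A and B came from separate cultures, nor whether a line is 1 clone, so p-values measure only the spread between these libraries.

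The centromere is the chromosomal site, marked by the histone H3 variant CENP-A, on which the kinetochore is built. A constitutive network of CENP proteins sits on CENP-A chromatin, the MIS12 and NDC80 complexes link that network to spindle microtubules, and checkpoint proteins delay anaphase until every kinetochore is attached. Many of these genes are transcribed in a cell cycle-dependent way with a peak around G2 and mitosis, so their mRNA level in a bulk culture follows both how many cells are in those phases and how much RNA each such cell holds. These measurements cannot tell fewer cells of a kind from less RNA per cell.

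Total counts per library ranged from 15423162 to 32581625, and counts of single members from 30 (SPC24) to 15216. Levels below are in CPM, the count divided by library size after TMM normalisation; differences are log2 fold changes with their standard error (SE), and a gene that "fell by" a value did so on that log2 scale. Adjusted p is from edgeR's quasi-likelihood test with Benjamini-Hochberg adjustment over all genes tested, with 0.05 as the threshold. WRN itself was at 91.2 and 111.6 CPM in the SW48 controls, at 34.1 to 56.9 CPM in the 4 SW48 WRN-guide libraries, at 32.0 and 39.8 CPM in the OVK18 controls and at 21.0 to 23.0 CPM in the 4 OVK18 WRN-guide libraries. Intestinal epithelial markers summed to 212 to 255 CPM in the SW48 controls (CDX2 87.4 CPM, HNF4A 63.7 CPM). Of the same list CDX1 was at 0, KRT20 at 0.0911, GPA33 at 0.118 and VIL1 at 1.82 CPM there. The list summed to 0.155 to 0.372 CPM in the OVK18 controls. In the OVK18 controls the Mullerian markers PAX8 and WFDC2 were at 0 and WT1 was at 0.911 CPM, while HOXA10 and HOXA11 were at 34.5 and 39.6 CPM. The whole Mullerian and ovarian list summed to 74.4 to 75.8 CPM there and to 115 to 119 CPM in the SW48 controls. In OVK18 the fibroblast list summed to 446 to 481 CPM, nearly all of it COL3A1 at 436 CPM. The A and B libraries differed from each other in a shared way: the members' median B minus A difference was 0.14 with sgCh2-2 and 0.13 with sgWRN3 in SW48 and 0.02 and 0.10 in OVK18, but lay on the other side of 0 with sgWRN2, at -0.14 in SW48 and -0.19 in OVK18. What the letters stand for is not stated, and their part in the results was not tested beyond the fits given in the closing section.

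In SW48 the centromere and kinetochore genes were lower with the WRN guides, and most of that difference came with sgWRN2. Summed over the 38 genes, the level was 2237 and 2514 CPM in the SW48 controls, 1495 and 1362 CPM with sgWRN2, and 1924 and 2194 CPM with sgWRN3. Each WRN-guide library lay below both controls, and the sgWRN2 pair lay below the sgWRN3 pair. With sgWRN2 alone, 23 of 38 members fell and none rose, while 1.95% of all genes tested fell and 1.13% rose. The members' median log2 fold change was -0.80, from -1.22 (CENPA) to 0.04 (CENPT), against a median of 0.02 over all genes tested. For the mean of both WRN guides, 11 of 38 members fell and none rose, against 0.613% and 0.254% of all genes, and the members' median was -0.51. That count of 11 was 3 (0.0775% of all genes lower) in a fit with the letter as a replicate block, and 27 (3.11%) with the letters of the sgWRN2 libraries swapped, a setting chosen after seeing the data. With sgWRN3 alone 0 of 38 members passed the threshold, as did 0% of all genes. There 7 members had an unadjusted p under 0.05 (1.85% of all genes), and DESeq2 and limma-voom also called 0 members. A fit without the sgWRN2 libraries and with the letter as a replicate block called 7 members lower (0.584% of all genes). In the main fit the members' median with sgWRN3 was -0.20 with 36 of 38 values below 0.

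By library, 35 of 38 members had both SW48 sgWRN2 libraries below both controls (17.2% of all genes), 20 had both sgWRN3 libraries below both controls (10.6% of all genes), and 18 had all 4 below (5.33% of all genes). The 11 calls for both guides moved with the libraries in the fit, and so did the calls over all genes. Without both sgWRN2 libraries 0 members and 0 of all genes were called. With any 1 library left out, the estimates of all 11 stayed below 0. The calls themselves rested on single libraries, and those of all 11 were lost without either SW48 control library. DSN1 moved most, from -0.83 to -0.50, and BIRC5 least, from -0.65 to -0.61. The 23 calls for sgWRN2 also moved with single libraries, while the estimates of all 23 stayed below 0 with any 1 library left out. NUF2 moved most there, from -1.13 to -0.69, and BIRC5 least, from -1.03 to -0.97. Leukocyte and endothelial markers summed to 10.5 to 11.1 CPM in the SW48 controls and to 12.83 to 14.03 CPM with sgWRN2, nearly all from CD68 and PTPRC in the controls, with CD3E, PECAM1 and CDH5 among those at 0 in the controls, and their part in the result was not tested.

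**Figure D1:**
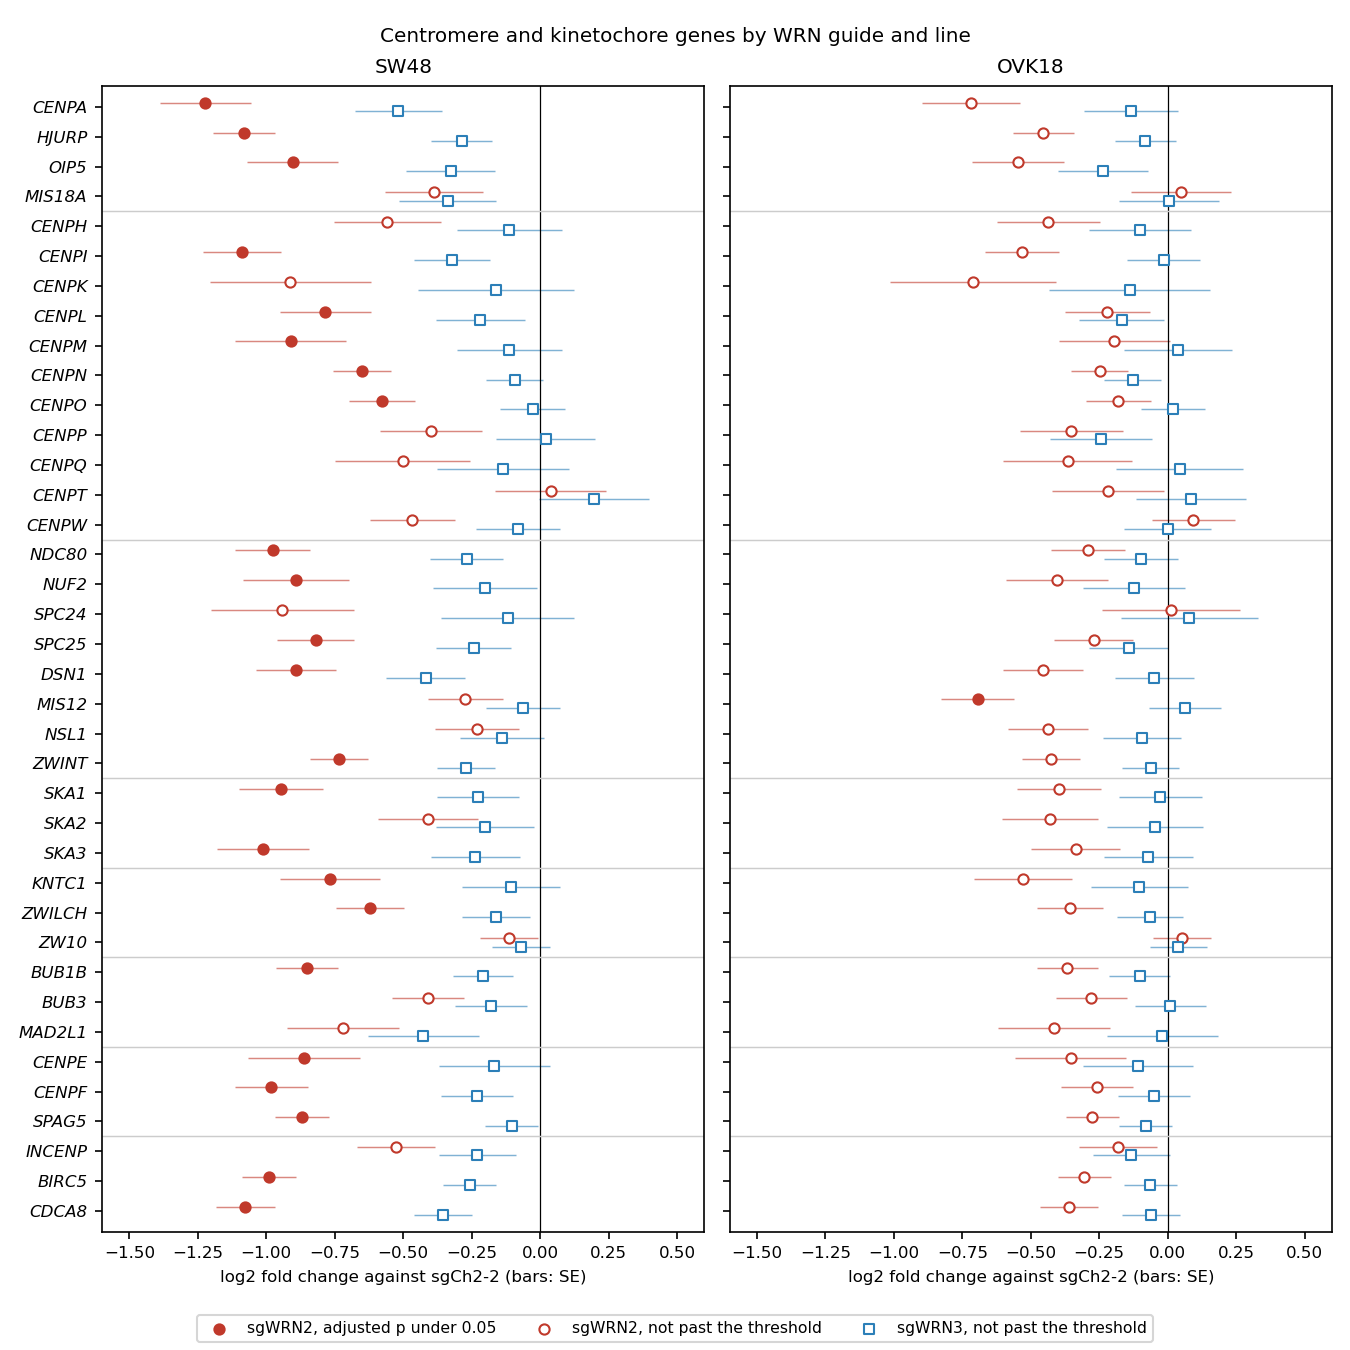
Log2 fold change of each of the 38 genes against sgCh2-2 of the same line, by guide, with SE bars; rows are grouped by role, filled points passed an adjusted p under 0.05 and open points did not. In SW48 the sgWRN2 points lie left of the sgWRN3 points in all 38 rows, 23 of them filled; in OVK18 most sgWRN2 points are nearer 0 and only MIS12 is filled.

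The promoters of these genes were read from a RefSeq table (GRCh38.p14) that gives 250 bases before to 50 after each gene's start and that matched 31 of the 38 members by symbol. The cell cycle genes homology region, written TTTGAA and bound by repressor and activator complexes of late cell cycle genes, was searched on both strands beside the CCAAT box bound by NF-Y. TTTGAA was present in 17 of 31 member promoters (54.8%) and in 18.2% of the 27305 gene promoters of the table. CCAAT was present in 19 of 31 (61.3%) against 39.7%, and 10 members held both. The E2F letters TTCGCGC or TTGGCGC were in 6 of 31 (19.4%) against 6.10%. These matches are descriptions of the letters, not of binding. Shown are the 3 members with TTTGAA and the smallest p in SW48, and the member with the largest p. Capitals mark TTTGAA and CCAAT on either strand, and each run is written 5′ to 3′ along the gene.
CDCA8, chr1:37692266-37692565, plus strand: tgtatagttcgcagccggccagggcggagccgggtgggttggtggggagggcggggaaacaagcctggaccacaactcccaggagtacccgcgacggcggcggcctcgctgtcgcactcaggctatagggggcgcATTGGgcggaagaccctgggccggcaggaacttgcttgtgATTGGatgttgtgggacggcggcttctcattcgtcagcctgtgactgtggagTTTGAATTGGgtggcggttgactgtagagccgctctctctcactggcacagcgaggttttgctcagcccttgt
HJURP, chr2:233854486-233854785, minus strand: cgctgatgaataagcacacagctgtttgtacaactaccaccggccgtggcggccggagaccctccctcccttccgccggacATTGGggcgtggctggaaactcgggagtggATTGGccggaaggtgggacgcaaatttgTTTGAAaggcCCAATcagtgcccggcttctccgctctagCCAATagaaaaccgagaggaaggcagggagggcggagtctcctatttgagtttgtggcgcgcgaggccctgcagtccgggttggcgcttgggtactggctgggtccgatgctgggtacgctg
CENPA, chr2:26785806-26786105, plus strand: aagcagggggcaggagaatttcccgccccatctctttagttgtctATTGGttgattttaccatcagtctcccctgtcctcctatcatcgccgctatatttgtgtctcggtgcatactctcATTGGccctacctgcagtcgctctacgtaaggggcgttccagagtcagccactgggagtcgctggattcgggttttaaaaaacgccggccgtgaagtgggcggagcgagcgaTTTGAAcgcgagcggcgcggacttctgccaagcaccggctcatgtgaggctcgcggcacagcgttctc
CENPT, chr16:67847644-67847943, minus strand: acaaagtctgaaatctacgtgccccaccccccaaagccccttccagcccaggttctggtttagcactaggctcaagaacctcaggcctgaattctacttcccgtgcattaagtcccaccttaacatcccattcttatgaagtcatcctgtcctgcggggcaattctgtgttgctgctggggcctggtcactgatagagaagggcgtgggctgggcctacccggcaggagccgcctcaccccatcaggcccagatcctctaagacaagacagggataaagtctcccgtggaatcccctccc

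With the start base counted as 0, the TTTGAA of CENPA began at -18 and that of CDCA8 at -23, where its last base is shared with an inverted CCAAT, whereas that of HJURP lay farther out, at -111, between 2 inverted and 2 direct CCAAT boxes. The window of CENPT, which encodes a DNA-binding linker of the inner kinetochore, held neither set of letters. Of the 17 members with TTTGAA, 15 had it within 50 bases of the start, the exceptions being HJURP and ZW10. With sgWRN2 in SW48 14 of these 17 fell, with a median log2 fold change of -0.87, and 5 of the 14 members without it fell, with a median of -0.56. Of all genes tested 1.95% fell there, and they were not split by these letters. With sgWRN2 in OVK18 the order was the other way round, at -0.34 with TTTGAA and -0.40 without. These medians describe the members and were not tested, and CENPI, DSN1 and CENPE fell with sgWRN2 in SW48 with neither TTTGAA nor CCAAT in the window.

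**Figure D2:**
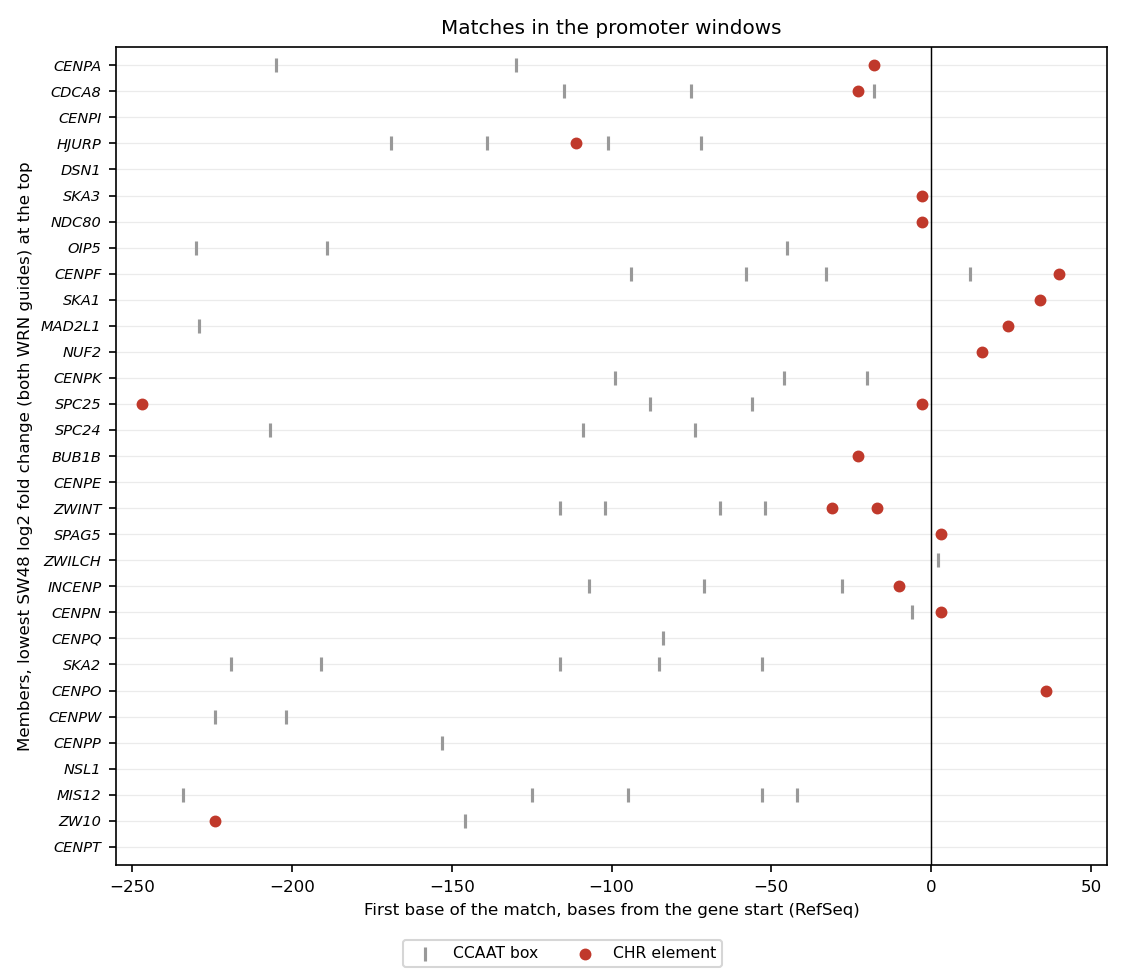
First base of each TTTGAA match (CHR element, circles) and CCAAT match (bars) on either strand, in bases from the RefSeq gene start, for the 31 members with a promoter in the table; rows run from the lowest SW48 log2 fold change over both WRN guides (CENPA, top) to the highest (CENPT, bottom). Most circles lie within 50 bases of the start, and those of HJURP and ZW10 and 1 of 2 of SPC25 do not. The rows of CENPI, DSN1, CENPE, NSL1 and CENPT are empty.

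Among the 4 genes for CENP-A and its loading, 3 fell with sgWRN2 in SW48. CENPA, the histone variant itself, was at 19.2 and 21.3 CPM in the SW48 controls, 7.99 and 9.38 CPM with sgWRN2, and 14.7 and 13.6 CPM with sgWRN3. The 3 groups did not overlap, and sgWRN3 lay between the control and sgWRN2. CENPA fell by 1.22 on the log2 scale with sgWRN2 (SE 0.166, adjusted p = 0.0018) and by 0.87 for both guides (SE 0.136, adjusted p = 0.0145), the largest change of any member in either comparison. In OVK18 its level was 7.38 and 5.79 CPM in the controls, 4.07 and 3.89 CPM with sgWRN2, and 5.66 and 6.28 CPM with sgWRN3. Only the sgWRN2 pair lay apart there, with a log2 fold change of -0.72 that missed the threshold (adjusted p = 0.0982). HJURP, the chaperone that deposits CENP-A at centromeres, was at 51.6 and 51.6 CPM in the SW48 controls, 23.6 and 25.1 CPM with sgWRN2, and 40.4 and 44.2 CPM with sgWRN3. The control libraries differed little and every WRN-guide library was lower. HJURP fell by 1.08 with sgWRN2 (SE 0.113, adjusted p = 0.000396) and by 0.68 for both guides (adjusted p = 0.00747). In OVK18 HJURP was at 26.3 and 28.9 CPM in the controls, 20.3 and 20.002 CPM with sgWRN2, and 25.1 and 27.0 CPM with sgWRN3, so only sgWRN2 lay apart.

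OIP5 and MIS18A encode the paired subunits of the Mis18 complex, which licenses centromeres for new CENP-A. OIP5 fell by 0.90 with sgWRN2 in SW48 (adjusted p = 0.0107), but 38.0% of its exon bases are shared with its antisense gene OIP5-AS1, and the counting is not stated to use strand. MIS18A was at 33.9 and 39.8 CPM in the SW48 controls, 31.0 and 25.2 CPM with sgWRN2, and 27.3 and 31.0 CPM with sgWRN3. Its log2 fold changes were -0.39 with sgWRN2 and -0.34 with sgWRN3, and neither passed the threshold. Its level in OVK18 was at 15.7 and 15.9 CPM in the controls, 19.3 and 13.1 CPM with sgWRN2, and 15.2 and 16.6 CPM with sgWRN3, and these groups overlap.

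Of the 11 genes of the constitutive centromere network, which stays on CENP-A chromatin through the cell cycle, 5 fell with sgWRN2 in SW48 and 1, CENPI, fell for both guides. CENPI, a subunit of the CENP-H/I/K/M complex, was at 16.9 and 19.6 CPM in the SW48 controls, 8.59 and 8.55 CPM with sgWRN2, and 13.9 and 15.3 CPM with sgWRN3. All groups were apart, and the sgWRN2 libraries were close to each other. CENPI fell by 1.09 with sgWRN2 (SE 0.143, adjusted p = 0.00151) and by 0.70 for both guides (SE 0.118, adjusted p = 0.0175). In the OVK18 libraries its level was at 17.9 and 18.6 CPM in the controls, 13.1 and 12.001 CPM with sgWRN2, and 17.3 and 18.7 CPM with sgWRN3, and only the sgWRN2 pair lay below both controls. CENPM, a partner of CENPI in the same complex, fell by 0.91 with sgWRN2 (adjusted p = 0.0313). The other subunits CENPH and CENPK had log2 fold changes of -0.56 and -0.91 that missed the threshold, CENPK with an SE of 0.295.

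CENPL and CENPN, which together recognise CENP-A nucleosomes, fell by 0.78 (adjusted p = 0.025) and by 0.65 (adjusted p = 0.00501) with sgWRN2. Of the CENP-O/P/Q/U/R branch, CENPO fell by 0.58 (adjusted p = 0.0235), while CENPP and CENPQ had log2 fold changes of -0.40 and -0.50 that did not pass. The other subunits of the branch are not among the members. Of these, CENPU fell by 0.91 (adjusted p = 0.00919), and ITGB3BP, which encodes CENP-R, had -0.53 and did not pass. CENPN, CENPO and CENPP share exon bases with genes on the opposite strand (CENPP 30.2% with IPPK), so their counts are uncertain. CENPT, BUB1B, MAD2L1 and ZWILCH share smaller parts, 0.805% to 7.87% with any 1 gene. CENPT was at 16.05 and 17.5 CPM in the SW48 controls, 15.7 and 18.7 CPM with sgWRN2, and 18.2 and 20.2 CPM with sgWRN3. It was the single member above 0 for both guides in SW48 (0.12, SE 0.174), with both sgWRN3 libraries above both controls. In OVK18 CENPT was at 10.9 and 13.7 CPM in the controls, 8.45 and 12.9 CPM with sgWRN2, and 11.98 and 14.2 CPM with sgWRN3, with wide overlap. Its dimer partner CENPW had a log2 fold change of -0.47 with sgWRN2 in SW48 and 0.09 in OVK18, and neither passed.

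Of the 8 genes of the NDC80 and MIS12 complexes with ZWINT, 5 fell with sgWRN2 in SW48 and 3 for both guides. All 4 subunits of the NDC80 complex, the main microtubule coupler, had like values with sgWRN2. NDC80 fell by 0.98 (adjusted p = 0.00214), NUF2 by 0.89 (adjusted p = 0.0284) and SPC25 by 0.82 (adjusted p = 0.00674). SPC24, the member with the lowest count, had a log2 fold change of -0.94 with an SE of 0.262 and missed the threshold (adjusted p = 0.086). The subunits of the MIS12 complex, which joins NDC80 to the inner kinetochore, did not have like values: DSN1 fell by 0.89 (SE 0.148, adjusted p = 0.00549), whereas MIS12 and NSL1 had log2 fold changes of -0.27 and -0.23 that did not pass.

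NSL1 was at 31.5 and 34.8 CPM in the SW48 controls, 31.5 and 24.9 CPM with sgWRN2, and 30.4 and 29.7 CPM with sgWRN3. In OVK18 it was at 100.6 and 105.3 CPM in the controls, 87.1 and 64.6 CPM with sgWRN2, and 93.1 and 99.8 CPM with sgWRN3. In both lines sgWRN2 B was the lowest library, and in OVK18 all 4 WRN-guide libraries lay below both controls. ZWINT, which binds KNL1 and is needed for recruitment of the RZZ complex, was at 70.7 and 72.2 CPM in the SW48 controls, 45.3 and 40.5 CPM with sgWRN2, and 61.8 and 56.6 CPM with sgWRN3. The 3 groups were apart, and ZWINT fell by 0.74 with sgWRN2 (SE 0.107, adjusted p = 0.00245) and by 0.50 for both guides (adjusted p = 0.0249). In OVK18 ZWINT was at 57.0 and 56.6 CPM in the controls, 44.7 and 39.8 CPM with sgWRN2, and 54.6 and 54.2 CPM with sgWRN3, the same order with smaller gaps, and its value there did not pass (-0.43, adjusted p = 0.0988).

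The SKA complex tracks depolymerising microtubule ends, and 2 of its 3 subunits fell with sgWRN2 in SW48, none for both guides. SKA3 fell by 1.01 (SE 0.168, adjusted p = 0.00555). SKA1 was at 41.3 and 43.8 CPM in the SW48 controls, 23.2 and 20.9 CPM with sgWRN2, and 32.0 and 40.6 CPM with sgWRN3. The sgWRN3 libraries differed widely, with B near the controls. SKA1 fell by 0.95 with sgWRN2 (SE 0.153, adjusted p = 0.00471) and had -0.59 for both guides (adjusted p = 0.0602). In OVK18 SKA1 was at 25.2 and 24.2 CPM in the controls, 20.9 and 16.5 CPM with sgWRN2, and 22.9 and 25.6 CPM with sgWRN3, where sgWRN3 spans the controls. SKA2 was at 54.0 and 65.4 CPM in the SW48 controls, 50.05 and 39.7 CPM with sgWRN2, and 47.0 and 56.7 CPM with sgWRN3. Its level in OVK18 was at 141.7 and 145.0 CPM in the controls, 125.6 and 86.7 CPM with sgWRN2, and 129.0 and 148.7 CPM with sgWRN3. In each line only sgWRN2 lay below both controls. Its log2 fold changes with sgWRN2, -0.41 in SW48 and -0.43 in OVK18, were alike in size and neither passed.

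The RZZ complex recruits dynein and checkpoint proteins to unattached kinetochores, and 2 of its 3 subunits fell with sgWRN2 in SW48. KNTC1 fell by 0.77 (adjusted p = 0.0444). ZWILCH was at 65.7 and 76.9 CPM in the SW48 controls, 48.5 and 44.1 CPM with sgWRN2, and 61.4 and 66.0 CPM with sgWRN3. Only the sgWRN2 pair lay below both controls, and ZWILCH fell by 0.62 (SE 0.124, adjusted p = 0.0175). In the OVK18 libraries its level was at 82.4 and 86.4 CPM in the controls, 72.1 and 59.5 CPM with sgWRN2, and 77.1 and 84.2 CPM with sgWRN3, where sgWRN3 overlapped the controls. ZW10, which also acts in membrane traffic between mitoses, was at 72.2 and 69.5 CPM in the SW48 controls, 70.9 and 60.2 CPM with sgWRN2, and 67.8 and 67.2 CPM with sgWRN3. In OVK18 it was at 58.6 and 56.5 CPM in the controls, 62.6 and 56.6 CPM with sgWRN2, and 59.3 and 58.9 CPM with sgWRN3. ZW10 had the smallest log2 fold change below 0 of all members in SW48, -0.11 with sgWRN2 (SE 0.106), and lay slightly above 0 in OVK18 (0.05).

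Of the 3 spindle checkpoint genes, BUB1B fell in SW48 with sgWRN2 and for both guides. BUB1B, the checkpoint kinase-like protein BubR1, was at 153.2 and 167.2 CPM in the SW48 controls, 95.6 and 81.8 CPM with sgWRN2, and 129.2 and 148.0 CPM with sgWRN3. No group overlapped another, and BUB1B fell by 0.85 with sgWRN2 (SE 0.112, adjusted p = 0.00151) and by 0.53 for both guides (SE 0.0943, adjusted p = 0.0245). Its level in OVK18 was at 91.7 and 93.6 CPM in the controls, 76.3 and 67.3 CPM with sgWRN2, and 86.3 and 86.2 CPM with sgWRN3, all 4 below both controls. MAD2L1, which encodes the anaphase inhibitor MAD2, had a log2 fold change of -0.72 with sgWRN2 in SW48 (adjusted p = 0.0949) and -0.43 with sgWRN3, the second most negative sgWRN3 value after CENPA at -0.52. BUB3, the shared partner of BubR1 and BUB1, was at 189.3 and 232.3 CPM in the SW48 controls, 167.0 and 150.4 CPM with sgWRN2, and 183.4 and 188.6 CPM with sgWRN3. All 4 WRN-guide libraries lay below both controls, but the controls were far apart and its log2 fold change with sgWRN2 of -0.41 did not pass. In OVK18 BUB3 was at 232.5 and 240.6 CPM in the controls, 216.5 and 173.2 CPM with sgWRN2, and 223.4 and 252.8 CPM with sgWRN3, and only sgWRN2 lay below both controls.

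All 3 outer kinetochore and spindle proteins fell with sgWRN2 in SW48. SPAG5, also called astrin, which stabilises end-on attachments, was at 94.2 and 90.7 CPM in the SW48 controls, 48.8 and 52.4 CPM with sgWRN2, and 82.2 and 90.0 CPM with sgWRN3. The sgWRN2 libraries stood far below the other 4, among which sgWRN3 B nearly reached the controls. SPAG5 fell by 0.87 with sgWRN2 (SE 0.0982, adjusted p = 0.000692) and by 0.49 for both guides (adjusted p = 0.0181), with 9.51% of its exon bases shared with SPAG5-AS1. In the OVK18 libraries its level was at 78.2 and 78.6 CPM in the controls, 63.2 and 66.4 CPM with sgWRN2, and 77.2 and 71.2 CPM with sgWRN3, all 4 WRN-guide libraries below both controls. CENPF, a large coiled-coil protein of the outer kinetochore that accumulates in G2, fell by 0.98 with sgWRN2 (SE 0.133, adjusted p = 0.0018) and by 0.61 for both guides (adjusted p = 0.0282). CENPE, the kinesin that carries chromosomes to the metaphase plate, was at 141.6 and 182.3 CPM in the SW48 controls, 93.2 and 85.0 CPM with sgWRN2, and 112.1 and 176.3 CPM with sgWRN3. Its sgWRN3 libraries differed widely, B reached the control range, and CENPE fell by 0.86 with sgWRN2 with a wide error (SE 0.205, adjusted p = 0.0433). In OVK18 CENPE was at 114.6 and 144.0 CPM in the controls, 108.8 and 93.5 CPM with sgWRN2, and 107.4 and 132.4 CPM with sgWRN3, and only sgWRN2 was below both controls.

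The chromosomal passenger complex brings the kinase Aurora B to the inner centromere, and 2 of its 3 genes here fell in SW48 both with sgWRN2 and for both guides. CDCA8, which encodes the targeting subunit borealin, was at 63.9 and 61.9 CPM in the SW48 controls, 31.4 and 28.2 CPM with sgWRN2, and 48.2 and 50.2 CPM with sgWRN3. The 3 groups stood far apart compared with the gap between A and B. CDCA8 fell by 1.08 with sgWRN2 (SE 0.108, adjusted p = 0.00035) and by 0.72 for both guides (SE 0.0898, adjusted p = 0.00507), the smallest adjusted p of any member for both guides. In OVK18 it was at 39.9 and 39.4 CPM in the controls, 31.4 and 30.3 CPM with sgWRN2, and 39.9 and 36.0 CPM with sgWRN3, so that only sgWRN2 lay below both controls. BIRC5, which encodes survivin, was at 126.3 and 127.7 CPM in the SW48 controls, 65.5 and 62.4 CPM with sgWRN2, and 106.0 and 106.6 CPM with sgWRN3. Replicate libraries were close in each group, and BIRC5 fell by 0.99 with sgWRN2 (SE 0.0983, adjusted p = 0.00035) and by 0.62 for both guides (adjusted p = 0.00609). In OVK18 BIRC5 was at 58.5 and 55.6 CPM in the controls, 49.4 and 42.9 CPM with sgWRN2, and 55.7 and 53.5 CPM with sgWRN3, again with sgWRN2 alone clear of the controls. INCENP, the scaffold of the complex, was at 66.1 and 55.4 CPM in the SW48 controls, 41.8 and 42.8 CPM with sgWRN2, and 56.8 and 47.0 CPM with sgWRN3. The sgWRN3 libraries overlapped its controls, and its log2 fold change with sgWRN2 of -0.52 did not pass (adjusted p = 0.0793). In OVK18 INCENP was at 39.6 and 33.2 CPM in the controls, 32.3 and 31.8 CPM with sgWRN2, and 35.9 and 30.5 CPM with sgWRN3, where sgWRN3 spanned values on both sides of the lower control.

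**Figure D3:**
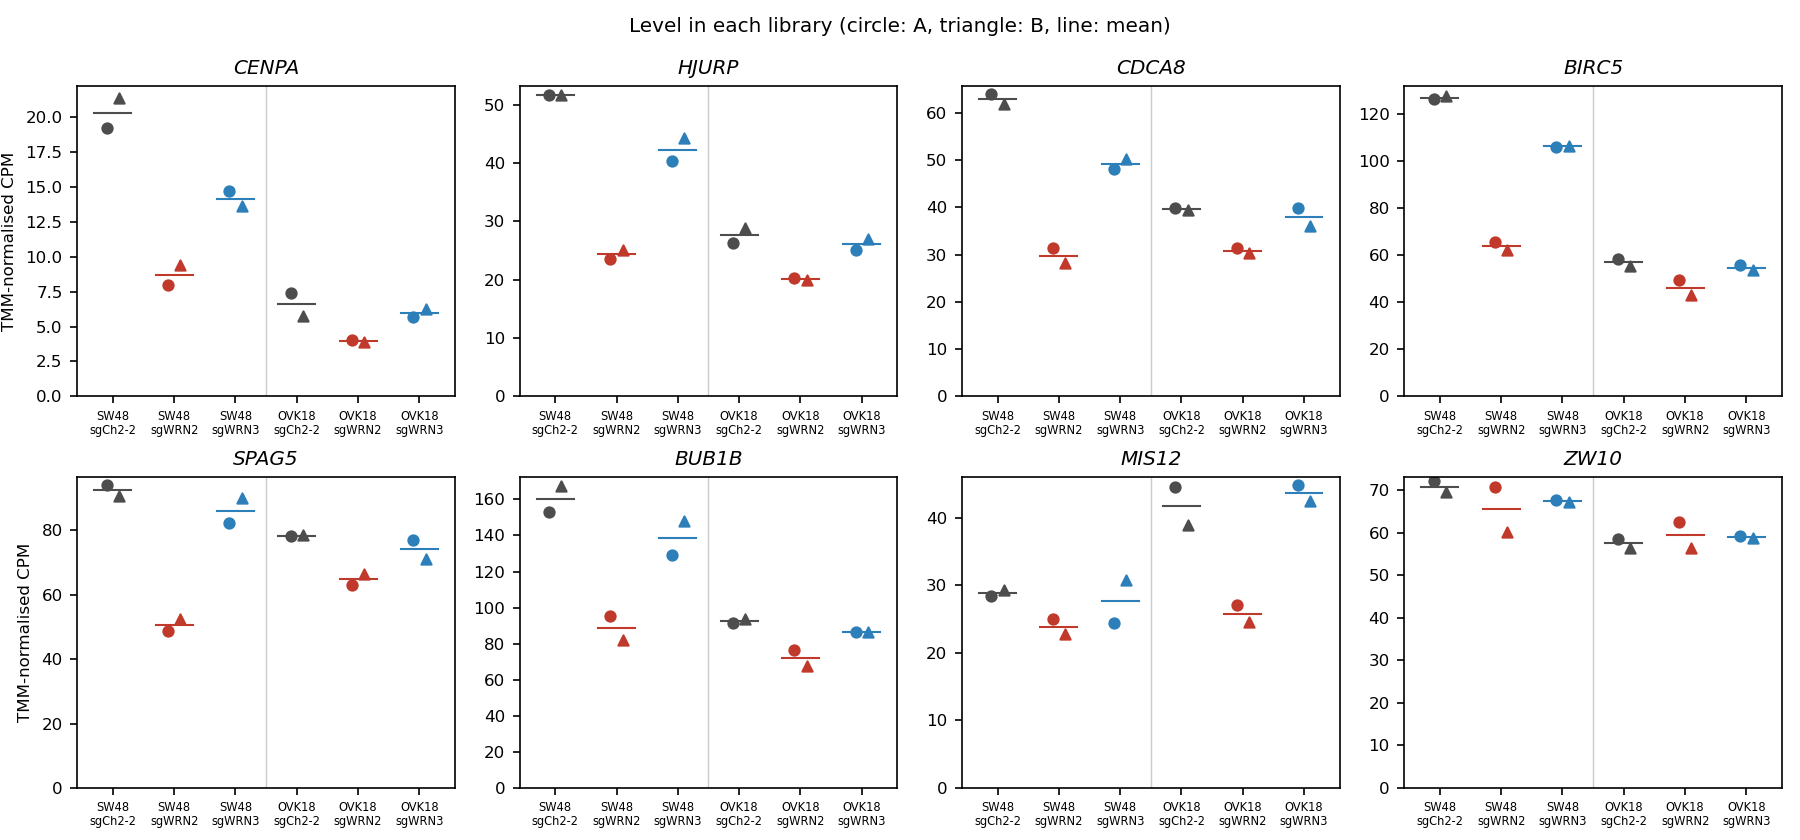
TMM-normalised CPM (vertical axis, from 0) of 8 members in each of the 12 libraries, by line and guide; circles are library A, triangles library B, horizontal lines the mean of both. In SW48 the sgWRN2 libraries of CENPA, HJURP, CDCA8, BIRC5, SPAG5 and BUB1B lie below all other SW48 libraries; MIS12 is lowest with sgWRN2 in OVK18, and ZW10 is nearly level.

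The guides were then set against each other within a line. In SW48, all 38 members had a lower estimate with sgWRN2 than with sgWRN3, with a median log2 difference of -0.57, and for 31 of them both sgWRN2 libraries lay below both sgWRN3 libraries (13.9% of all genes). The difference passed the threshold for 9 of 38 members (0.655% of all genes): HJURP, CENPI, CENPN, NDC80, BUB1B, CENPF, SPAG5, BIRC5 and CDCA8. The smallest adjusted p was that of SPAG5, which was lower with sgWRN2 by a log2 difference of -0.77 (SE 0.0986, adjusted p = 0.00582), and HJURP differed by -0.80 (SE 0.114, adjusted p = 0.00833). CENPA differed by -0.71, with an adjusted p of 0.0999. The 9 calls rested on single libraries, but with any 1 library left out the 9 estimates stayed below 0. NDC80 moved most, from -0.87 to -0.55, and BIRC5 least, from -0.77 to -0.72. A fit that left out the sgWRN2 libraries and took the letter as a replicate block called 7 members lower with sgWRN3 in SW48 (0.584% of all genes), namely CENPA, MIS18A, DSN1, MAD2L1, CENPF, BIRC5 and CDCA8.

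In OVK18, 1 of 38 members fell with sgWRN2 and none rose (0.261% of all genes fell and 0.535% rose), and the median log2 fold change was -0.36 with 34 of 38 values below 0. That member was MIS12, which gives its complex its name. MIS12 was at 44.6 and 38.9 CPM in the OVK18 controls, 27.0 and 24.5 CPM with sgWRN2, and 44.8 and 42.4 CPM with sgWRN3. The sgWRN2 pair lay far below the other 4 libraries, which overlapped. MIS12 fell by 0.69 with sgWRN2 (SE 0.134, adjusted p = 0.0399) and was lower than with sgWRN3 by a log2 difference of -0.76 (SE 0.135, adjusted p = 0.0248), the 1 member called in that comparison (0.31% of all genes). In SW48 MIS12 was at 28.4 and 29.2 CPM in the controls, 24.9 and 22.8 CPM with sgWRN2, and 24.4 and 30.8 CPM with sgWRN3, so sgWRN3 spanned the controls. The OVK18 calls of MIS12 were made in 2 of 12 fits that left out 1 library for sgWRN2 and in 6 of 12 for sgWRN2 against sgWRN3; for sgWRN2 only the fits without SW48 sgWRN3 A or B kept it. With the replicate block neither call was made.

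Summed member levels in OVK18 were 2122 and 2219 CPM in the controls, 1882 and 1587 CPM with sgWRN2, and 2004 and 2172 CPM with sgWRN3. Both sgWRN2 libraries lay below both controls for 31 of 38 members (21.4% of all genes), both sgWRN3 libraries for 10 (10.5% of all genes), and all 4 for 9 (3.84% of all genes). All 23 members that fell with sgWRN2 in SW48 had a value below 0 with sgWRN2 in OVK18. So did 34 of all 38 members and 7127 of the 14199 genes tested. These comparisons share no library, but the B minus A differences of the 2 sgWRN2 groups correlated at 0.62 over genes. For both guides together 0 of 38 members passed (0.0282% of all genes), 8 had an unadjusted p under 0.05 (4.04% of all genes), and the median was -0.21. With sgWRN3 alone 0 of 38 passed (0% of all genes), 0 had an unadjusted p under 0.05 (0.817% of all genes), and the median was -0.06. DESeq2 and limma-voom also called 0 members in both.

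The change for both WRN guides was more negative in SW48 than in OVK18 for 34 of 38 members, with a median difference of -0.29, but the difference between the lines passed the threshold for 0 of 38 members (0.0282% of all genes in either direction). The smallest adjusted p was 0.951, that of CDCA8, which differed by -0.50. Unadjusted, 8 members had a p under 0.05 (2.75% of all genes), and DESeq2 and limma-voom called 0. These members are therefore not shown to respond differently in the lines.

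Other genes of the pathway were read from a list of 29 further kinetochore and mitotic checkpoint genes. With sgWRN2 in SW48, 14 of 29 fell, 0 rose and the median log2 value was -0.53, and for both guides 5 fell and the median was -0.35. Of all genes tested, 1.95% fell with sgWRN2 in SW48 and 0.613% for both guides. BUB1, the kinase that phosphorylates centromeric histone H2A, fell by 0.65 for both guides (SE 0.09, adjusted p = 0.00776). PLK1, the polo-like kinase that promotes kinetochore attachment, fell by 0.70 (adjusted p = 0.0129). KIF2C, the microtubule depolymerase that corrects attachment errors, fell by 0.57 (adjusted p = 0.0134), and CDC20, the anaphase activator held by the checkpoint, fell by 0.70 (adjusted p = 0.0167). In a list of 38 DNA replication genes, 26 fell with sgWRN2 in SW48, with a median of -0.66, and 7 fell for both guides, with a median of -0.41. RRM2, a subunit of ribonucleotide reductase, fell by 0.64 for both guides (adjusted p = 0.00938), and GINS2, a subunit of the replicative helicase, fell by 0.61 (adjusted p = 0.0156). In OVK18 with sgWRN2, 1 of the 29 and 2 of the 38 fell, against 0.261% of all genes tested. Whether the lists differ in the size of their changes was not tested.

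Levels of different members are compared only per transcript length, in the FPKM values of the control libraries. BUB3 was the highest and CENPP the lowest member in both lines, at 76.7 and 1.69 FPKM in SW48 and 90.4 and 1.07 FPKM in OVK18. In SW48 BUB3 was followed by MAD2L1 at 56.0 FPKM, BIRC5 at 39.5 FPKM and ZWINT at 37.1 FPKM. Its level in OVK18 was followed by SKA2 at 40.6 FPKM, CENPF at 33.1 FPKM, and MAD2L1 and ZWINT both at 29.4 FPKM. The subunits of 1 complex were not at 1 level: NDC80 and SPC25 were at 24.8 and 25.3 FPKM in SW48 and SPC24 at 5.54 FPKM.

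In the counts, 23 of 38 members were higher in the SW48 than in the OVK18 controls and 4 were lower, against 33.9% and 34.7% of all genes, with a median log2 difference of 0.47. The widest gap upward was that of CENPA (1.62, SE 0.164, adjusted p = 2.08e-06), at 12.8 FPKM in SW48 and 3.86 FPKM in OVK18. SPC25 and MIS18A followed, at 1.37 and 1.22. The 4 lower members were NSL1 (-1.64, adjusted p = 8.22e-07), SKA2 (-1.27, adjusted p = 4.32e-05), CENPL (-0.54, adjusted p = 0.00873) and MIS12 (-0.53, adjusted p = 0.00349). NSL1 was at 1.91 FPKM in SW48 and 5.89 FPKM in OVK18. SKA2 at 16.8 and 40.6 FPKM had the same order. The lines differ in tissue of origin and in donor, and these cannot be told apart.

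**Figure D4:**
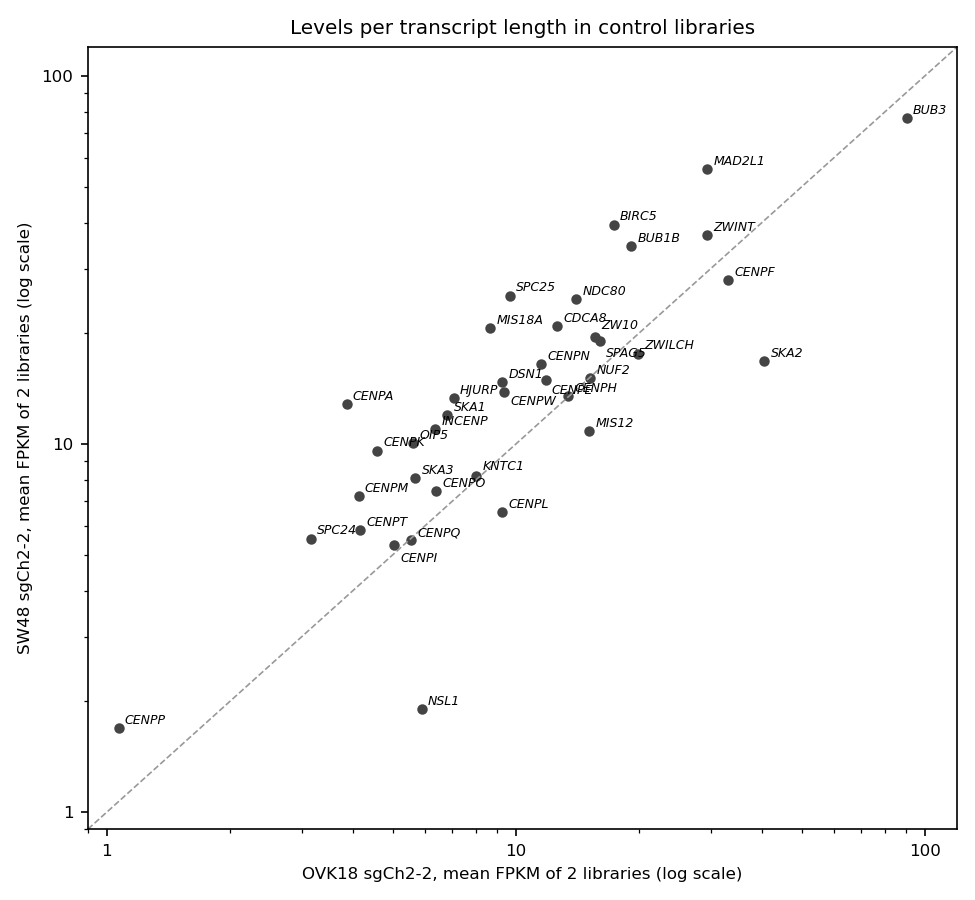
Mean FPKM of the 2 sgCh2-2 libraries of SW48 (vertical, log scale) and OVK18 (horizontal, log scale) for the 38 members; the dashed line marks equal values. Most members lie above the line, CENPA, SPC25, MIS18A and BIRC5 farthest. NSL1, SKA2, CENPL and MIS12 lie farthest below it, and BUB3, CENPF, ZWILCH, NUF2 and CENPQ lie closer below it.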

How the data were processed

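Counts per gene were deposited by the authors as whole numbers for 12 libraries; STAR 2.5, bcl2fastq 2.18 and genome build hg19 are named in the submitters' processing notes. A second table deposited by the authors is read here as FPKM, since counts divided by its values follow transcript length (Spearman 0.835 over 10287 genes); Cufflinks 2.2.1 is named in the same notes. Annotation and strand setting are not given in the sources used here. The table's 92 spike-in features were left out. In R 4.3.3, edgeR 4.0.16 was run on the counts with TMM, filterByExpr and a robust quasi-likelihood fit of 6 groups (6 residual degrees of freedom), which share 1 estimate of the spread. The steps were tested on simulated counts for both guides in SW48. Those counts held no difference between A and B libraries shared over groups, so the part of the letters was not tested there. SE is the log2 fold change over the square root of F. A value "for both guides" averages the coefficients of the WRN guides and subtracts that of the control. Replicate libraries differed beyond counting error (chi-square per gene 8.68 to 25.0).

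The members, the gene lists and the markers were chosen with earlier results of these data known. Library values are given for CENPA, for the smallest and largest p of each role in SW48 for both guides, and for up to 4 called members by p in each other WRN-guide comparison; BUB1, PLK1, KIF2C, CDC20, RRM2 and GINS2 were named by p. Shared exon bases are from GENCODE gene models, used for names and shares only, and 9 members share exon bases with another gene. Alternatives were other scalings, filters, tools (DESeq2 1.42.0, limma 3.58.1), FPKM values, a replicate block, fewer libraries and leaving out each library. With 2 libraries a group, no outlier test was made.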

Additional observations from a re-analysis of the deposited data

How the results depend on the processing

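The counts of members that passed the threshold moved with the processing, while none of 56 member values, the called ones and those of both guides in SW48 given by library, turned direction: over all settings 1178 recomputed values kept their side of the threshold, 190 lost it and 20 gained it. For both guides in SW48 (11 members fell) the count was 19 with no filter on low counts, 17 on FPKM with pseudocount 1, 4 with only the libraries of the line, 0 without the sgWRN2 libraries, and 0 to 14 when 1 library was left out. For sgWRN2 in SW48 (23) it was 10 to 24 when 1 library was left out. For sgWRN2 in OVK18 (1) it was 4 with no filter, 5 by DESeq2, 0 with only the libraries of the line, and 0 to 1 with 1 library left out. For sgWRN2 against sgWRN3 in SW48 (9) it was 19 with no filter, 18 by DESeq2, 4 with only the libraries of the line, and 0 to 13 with 1 library left out. In OVK18 (1) that comparison gave 2 by DESeq2, 0 with only the libraries of the line, and 0 to 1 with 1 library left out. With fewer libraries or no filter the number of genes or samples in the test differs by construction; for the others the cause was not tested. Over all genes tested, the calls for both guides in SW48 were 123, and 298 by DESeq2, 292 with no filter, 197 on FPKM with pseudocount 1, 44 with only the libraries of the line, 28 with the replicate block and 0 without the sgWRN2 libraries. Calls over all genes are not given here for the other comparisons in these settings, nor with 1 library left out. Those member counts therefore cannot be set against all genes. The counts of 0 for both guides and for sgWRN3 in OVK18 and for the difference between lines did not move in any setting run, and the comparison of controls (27 either way) ranged from 20 to 30. TTTGAA was in 19 member promoters with TTCGAA added and in 16 in the shorter window.

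What the letters A and B mark is not stated, but the B minus A differences were shared between groups. Their correlation over genes was 0.60 to 0.69 among control and sgWRN3 groups. It was -0.58 to -0.10 between these and the sgWRN2 groups, and 0.62 between the sgWRN2 groups. With the letter as a replicate block within each line, the count was 3 for both guides in SW48, 17 for sgWRN2, 0 for sgWRN2 in OVK18, and 4 and 0 for sgWRN2 against sgWRN3 in SW48 and OVK18. Without the sgWRN2 libraries and with the replicate block it was 7 for both guides in SW48, which is then sgWRN3 alone, and 7 for sgWRN3. A crossed replicate block, with the letters of the 4 sgWRN2 libraries swapped, was chosen after seeing the data and gave 27, 33, 24, 23 and 16 in that order, with 3.11%, 5.73%, 7.61%, 2.77% and 7.35% of all genes lower, against 0.0775%, 1.23%, 0.0282%, 0.169% and 0.0423% with the uncrossed block. SPC24, with as few as 30 counts, and CENPK, whose A and B libraries lay far apart, had the widest errors with sgWRN2 in SW48.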
